A study of Homo sapiens and Mus musculus with 24 samples.

Results

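The cytosolic ribosomal protein genes encode the protein parts of the ribosomes that translate nuclear mRNAs. They were chosen by symbol alone: RPL or RPS with 1 or 2 digits and, where present, a final A, X or L, plus RPLP0, RPLP1, RPLP2 and RPSA, without pseudogene names. The rule found 81 genes, 49 of the large and 32 of the small subunit, among 44564 named rows. In 79 of them the level reached 1 RPKM (reads scaled to gene length and to the reads of the library) in at least 2 libraries; RPL39L and RPL3L did not and entered no test.

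Their mRNA was measured in LNCaP, a human prostate cancer epithelial line that depends on androgen signalling, in 12 bulk RNA libraries that form 6 groups of 2. The cells were labelled WT and were harvested at day 7. They grew alone, beside fibroblasts labelled CCAFs, or beside others labelled CRPCCAFs, under the vehicle DMSO or 1 μM enzalutamide, which blocks the androgen receptor. The library titles name these 3 cultures blank, p53 and p53_ca, and the labels explain neither these codes nor the fibroblast abbreviations. Replicates are called biological, with no word on how the cultures were separated, so every p-value measures the spread between these samples only.

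A ribosome has a small subunit, which reads the mRNA, and a large subunit, which joins amino acids. Each subunit holds its proteins in fixed proportion, and their mRNAs are among the most abundant in growing cells. Most of these mRNAs begin with a C followed by a run of pyrimidines, the terminal oligopyrimidine (TOP) tract, through which mTOR and the RNA-binding protein LARP1 set their translation. MYC is known to raise transcription of ribosomal protein genes and of the nucleolar factors that assemble ribosomes. Prostate cancer cells grown under androgen receptor blockade are known to slow their division.

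The bases around the annotated start are shown for members with large and with small changes under enzalutamide, because the tract sits there. They come from RefSeq promoters (GRCh38.p14), which matched 64 of the 81 members by symbol. Each line runs 5′ to 3′ on the gene's strand, from 15 bases before the first transcribed base, and capitals mark a run of at least 6 pyrimidines that begins with C within 10 bases of the start. First come 4 members with large falls, then 5 whose changes were small in at least 1 culture.
RPL4, chr15:66504841-66504870, minus strand: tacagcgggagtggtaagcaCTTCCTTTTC
RPL32, chr3:12841551-12841580, minus strand: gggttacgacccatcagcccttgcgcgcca
RPS3, chr11:75399503-75399532, plus strand: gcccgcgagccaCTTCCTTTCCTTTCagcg
RPL14, chr3:40457324-40457353, plus strand: gggcgggtCTTCTTCCTTCTCgcctaacgc
RPL39, chrX:119791616-119791645, minus strand: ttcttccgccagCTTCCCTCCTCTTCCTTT
RPS27, chr1:153990747-153990776, plus strand: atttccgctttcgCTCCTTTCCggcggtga
RPLP1, chr15:69452803-69452832, plus strand: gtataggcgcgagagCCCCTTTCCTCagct
RPL41, chr12:56116618-56116647, plus strand: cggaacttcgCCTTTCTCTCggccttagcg
RPS27L, chr15:63157463-63157492, minus strand: aagttgatgccgagcgcagatcgcttgcag

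Such a run was found in 50 of the 64 members (78.1%), in 20.5% of 27303 promoters of the table and in 15.9% of 69 promoters of mitochondrial ribosomal protein genes. RPL39 had the longest run of those shown, 22 bases, and RPL4 one of 12, and both runs go on past the printed window. RPL32 and RPS27L have no run of 6 at the annotated start, which need not be the start used in LNCaP. On either strand of the 300 bases, the letters CCGGAAG (the core bound by ETS factors) stood in 22 of 64 members (34.4%) against 10.67% of all promoters. AAGATGGC, a YY1 core, stood in 6 (9.4%) against 3.03%, TATAAA in 6 against 11.95%, and the E-box CACGTG in 3 (4.7%) against 7.44%. Of the 69 mitochondrial ribosomal protein promoters, 29 held CCGGAAG, 20 AAGATGGC, 2 TATAAA and 6 CACGTG. Neither CCGGAAG nor AAGATGGC is thus particular to the cytosolic members. These matches describe letters and not binding.

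Recovered read numbers ran from 17850431 to 22187880 per library, and their precision is set by the 2 libraries a group more than by depth, since the median library held 8764 reads of RPS27 and 34381 of RPL4. The androgen receptor target KLK3, which checks the drug labels, stood at 1243 and 1145 RPKM in LNCaP alone under DMSO and at 55.6 and 61.5 under enzalutamide. All 14 luminal epithelial markers were at 1 RPKM or more in every library, with a summed level of 1880 to 2607 RPKM. Of 25 fibroblast markers, 7 to 10 per library reached 1 RPKM, and the summed level was 90.05 to 93.2 RPKM in LNCaP alone under DMSO, 151 to 153 there under enzalutamide, 125 to 131 and 146 beside CCAFs, and 202 to 213 and 292 to 302 beside CRPCCAFs, under DMSO and enzalutamide. Under enzalutamide, 7 of the 10 fibroblast markers that passed the filter were higher beside CRPCCAFs than beside CCAFs (limma adjusted p under 0.05). None was lower, and the counts were the same at an unadjusted p. By the adjusted p, 13.9% of all genes were higher and 18.5% lower. Of the same 10, 6 were higher and 1 lower with enzalutamide in LNCaP alone, where 30.1% of all genes were higher and 25.3% lower. Against LNCaP alone under enzalutamide, 5 of the 10 were higher beside CRPCCAFs and 1 was lower, where 16.5% of all genes were higher and 19.6% lower. FN1 stood at a mean of 183 RPKM beside CRPCCAFs, 56.3 beside CCAFs and 50.3 alone under enzalutamide. In the same order VIM stood at 12.1, 5.32 and 2.56, COL1A1 at 12.4, 7.34 and 7.81, and COL5A1 at 1.94, 0.68 and 0.49. COL6A1, at 55.0, 48.6 and 58.6, and COL5A2, at 3.98, 3.69 and 5.06, were highest in LNCaP alone. COL1A2, DCN, POSTN, THY1, PDGFRA and FAP stayed under 0.3 RPKM in every library and COL1A2 and POSTN were at 0 in both CRPCCAF enzalutamide libraries.

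In LNCaP alone under DMSO, RPS2 (2742 ± 132 RPKM; every ± is the SD of 2 libraries) and RPS18 (2732 ± 130) had the highest levels and did not differ beyond their spread. RPL7A and RPLP1 were lower, at 2298 ± 105 and 2201 ± 125 RPKM, again within each other's spread. The lowest members that passed the filter were RPL10L (4.87 ± 0.35 RPKM), a copy mainly known from testis, then RPL28 (77.0 ± 3.25) and RPS27L (84.9 ± 4.26). RPL3L, the copy known from heart and skeletal muscle, had at most 5 reads in a library, and RPL39L stayed under 0.1 RPKM.

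The gene length by which the authors divided reads could be recovered and ran from 351 bases for RPS27 to 5185 for RPL28, far past a mature ribosomal protein mRNA in the longest models. Across 79 members the level fell with log10 length (Pearson r = -0.50, Spearman rho = -0.47, a description across genes that share the same libraries). RPL28, for example, was 78th of the members by RPKM but 62nd by reads, so levels of members with long models, such as RPL13, RPL15, RPL27A and RPL28, read low beside those of short ones. Changes between groups are not touched by a fixed length.

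**Figure D1:**
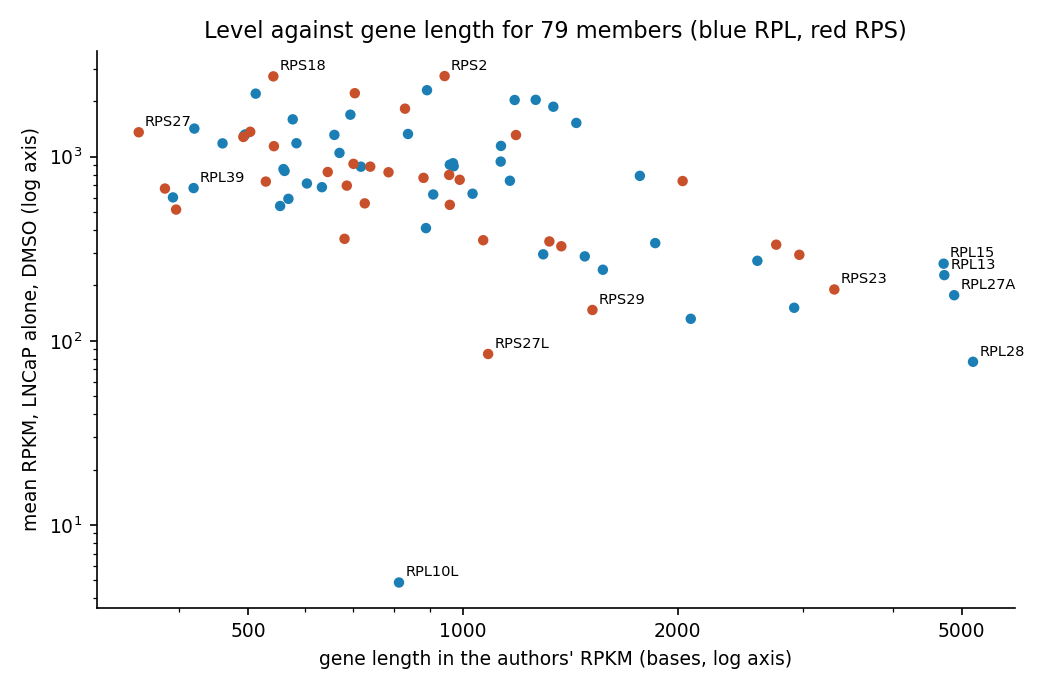
Mean RPKM in LNCaP alone under DMSO (log axis) against the gene length used for RPKM in bases (log axis), 1 point per member, blue for large and red for small subunit names. The members with the longest models lie low; RPL10L lies far below the others at 4.87 RPKM.

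The family as a whole took a smaller share of the RPKM total in every enzalutamide culture. The members' summed share of the RPKM total was 16.23% and 15.40% in the 2 libraries of LNCaP alone under DMSO, and 12.78% and 13.42% under enzalutamide. Beside CCAFs it was 14.81% and 15.02% under DMSO and 13.19% and 13.64% under enzalutamide. Beside CRPCCAFs it was 14.94% and 16.05% under DMSO and 11.37% and 11.74% under enzalutamide, the lowest of the 6 groups. In each culture both enzalutamide libraries lay below both DMSO libraries. The members' share of recovered reads, which is not scaled to gene length, was smaller but had the same order. It was 6.6% and 6.2% under DMSO and 4.9% and 5.2% under enzalutamide in LNCaP alone. Beside CCAFs it was 5.8% and 5.9%, then 5.1% and 5.3%. Beside CRPCCAFs it was 5.8% and 6.4%, then 4.2% and 4.4%. In bulk RNA, fewer cells of a kind and less RNA per cell cannot be told apart, and a share falls where other RNA rises.

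**Figure D2:**
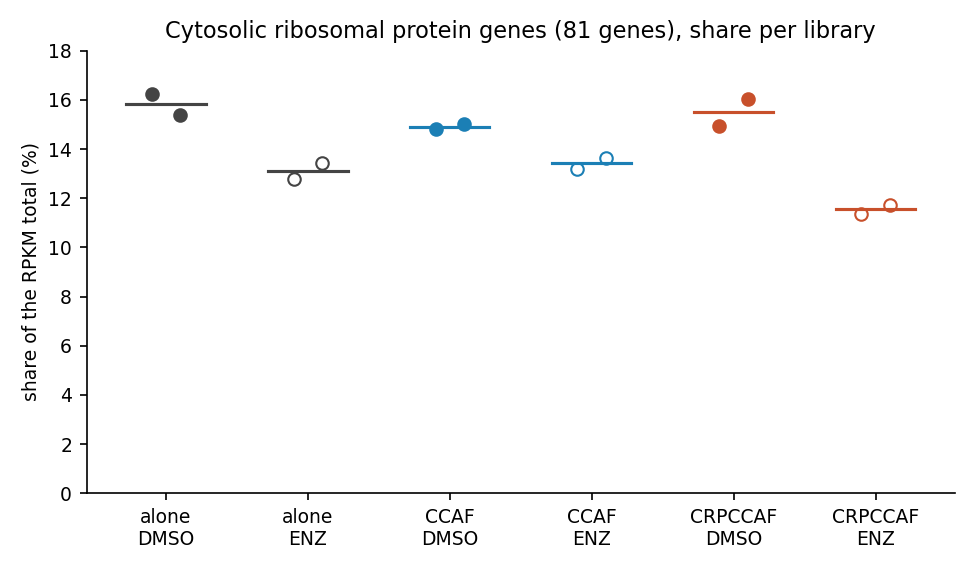
Share of the RPKM total held by the 81 members (percent, axis from 0), 1 point per library (filled DMSO, open enzalutamide, ENZ), with the line at the group mean. The enzalutamide libraries lie between 11.37% and 13.64%, below all DMSO libraries (14.81% to 16.23%).

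Both subunits fell by like amounts. The summed RPKM of the members fell by 20.3% with enzalutamide in LNCaP alone, by 10.2% beside CCAFs and by 28.9% beside CRPCCAFs. Large subunit genes fell by 20.8%, 10.5% and 28.9%, while small subunit genes fell by 19.5%, fell by 9.74% and fell by 28.8%. The ratio of the large to the small subunit sum stayed between 1.45 ± 0.02 (LNCaP alone, enzalutamide) and 1.49 ± 0.01 (beside CRPCCAFs, DMSO) over the 6 group means.

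Within a group, the members of 1 library moved together. In LNCaP alone under DMSO, 78 of 79 members were higher in library 1 (median log2 difference 0.09), and beside CRPCCAFs under DMSO 77 of 79 were higher in library 2 (median difference -0.14, library 1 minus library 2). The median over all genes was within 0.012 of 0 in every group. In the other groups 63 to 72 of 79 members were higher in library 2. Library 2 was thus the higher in every group but LNCaP alone under DMSO. A count of members is therefore not a count of independent results.

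Enzalutamide in LNCaP alone lowered 71 of 79 members and raised none (limma adjusted p under 0.05). The background is high, since 25.3% of all 16042 genes tested were lower and 30.1% higher. The members' median log2 change was -0.32, a fall of 19.9%, against 0.04 over all genes, and the interquartile range was -0.43 to -0.26. All log2 changes are on the log2(RPKM + 1) scale, and ± after one is its SE. No member was higher at an unadjusted p under 0.05 either, while 73 were lower. By subunit, 41 of 47 large and 30 of 32 small members were lower.

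RPL32, a large subunit protein, stood at 348 and 331 RPKM under DMSO and at 217 and 224 under enzalutamide, a log2 change of -0.62 ± 0.05 (limma adjusted p = 7.5e-06). RPL4, whose loop reaches into the tunnel through which the new chain leaves, went from 1576 and 1475 to 987 and 1012 RPKM (-0.61 ± 0.05; limma adjusted p = 2.9e-06). Both genes held about the same fall, with enzalutamide libraries far below DMSO libraries. RPS29, a small zinc-binding protein of the small subunit, went from 160 and 134 to 98.9 and 103 RPKM (-0.54 ± 0.10; adjusted p = 0.0012). RPL14 went from 952 and 892 to 648 and 640 RPKM (-0.52 ± 0.04; adjusted p = 6.6e-06). RPL35, at the tunnel's exit, went from 1241 and 1123 to 799 and 853 RPKM (-0.52 ± 0.07; adjusted p = 0.00011). These 5 had the largest falls in LNCaP alone, and in none did the groups overlap.

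Members that did not pass in LNCaP alone were RPL13, RPL28, RPL37A, RPL41, RPLP1, RPS15, RPS27 and RPL10L. RPS27 stood at 1386 and 1330 RPKM under DMSO and at 1337 and 1313 under enzalutamide (log2 change -0.04 ± 0.06; limma adjusted p = 0.62), with overlapping groups. RPL41, which encodes a peptide among the shortest of the ribosome, stood at 1224 and 1144 and at 1049 and 1151 RPKM (-0.11 ± 0.07; adjusted p = 0.23), also overlapping. The members' median gap between the 2 DMSO libraries, 0.09, is of the size of these changes.

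**Figure D3:**
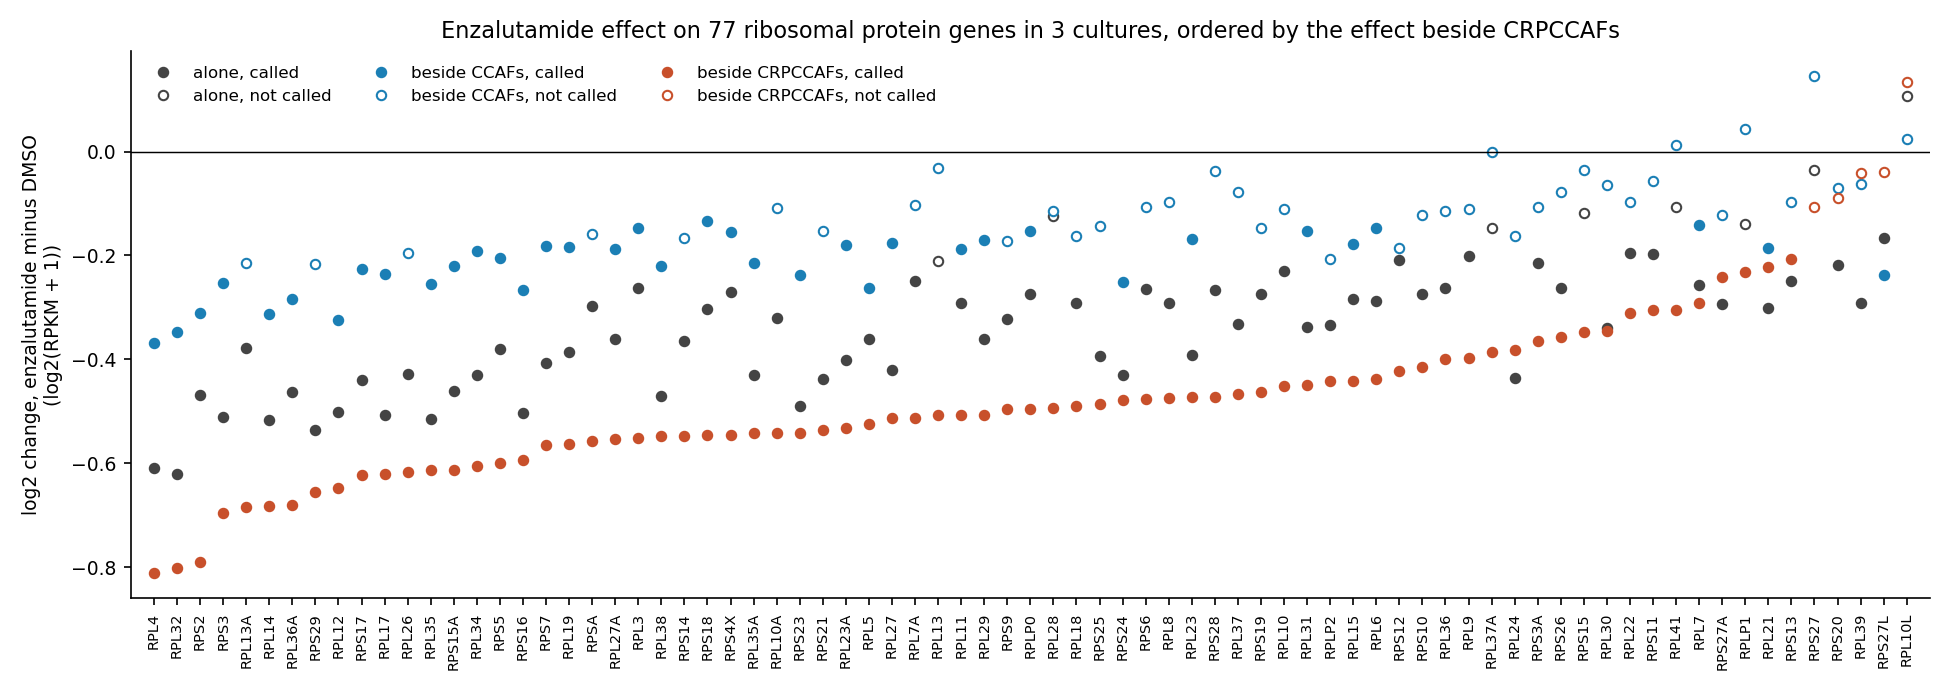
Log2 change with enzalutamide (log2(RPKM + 1), enzalutamide minus DMSO) of 77 of the 79 tested members in LNCaP alone (black), beside CCAFs (blue) and beside CRPCCAFs (red), filled where the limma adjusted p was under 0.05. In 69 of them the red point is lowest, the black next and the blue highest; RPS27, RPS20, RPL39, RPS27L and RPL10L at the right end have open red points.

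Beside CRPCCAFs the members' median fall was largest. Of 79 members, 74 were lower and none was higher (limma adjusted p under 0.05; none higher at an unadjusted p under 0.05), where 24.7% of all genes were lower and 30.5% higher. The median log2 change was -0.50, against 0.05 over all genes, and the interquartile range was -0.56 to -0.40. All but 2 of 47 large and all but 3 of 32 small members were lower. Leaving out any 1 of the 4 libraries gave between 71 and 75 lower members.

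RPL4 again led, from 1393 and 1463 RPKM under DMSO to 807 and 818 under enzalutamide, a log2 change of -0.81 ± 0.05 (limma adjusted p = 4.2e-07). RPL32 went from 310 and 335 to 180 and 189 RPKM (-0.80 ± 0.05; adjusted p = 1.4e-06). RPS2, a protein near the mRNA entry site of the small subunit, went from 2362 and 2753 to 1425 and 1528 RPKM (-0.79 ± 0.07; adjusted p = 1.3e-05). Its 2 DMSO libraries lay far apart, and both were still well above the enzalutamide pair. RPS3, which lines the mRNA entry channel, went from 316 and 345 to 200 and 207 RPKM (-0.70 ± 0.07; adjusted p = 2.4e-05). RPL4 and RPL32 thus lost about 43.1% and 42.8% of their mean level in this culture.

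5 members did not pass beside CRPCCAFs, and RPS20 among them is named only because the count is small. RPL39, the shortest protein at the tunnel wall, stood at 690 and 724 RPKM under DMSO and at 678 and 695 under enzalutamide (-0.04 ± 0.05; limma adjusted p = 0.47). In LNCaP alone the same gene had fallen from 701 and 651 to 565 and 538 RPKM (-0.29 ± 0.05; adjusted p = 0.00046). The 2 effects of RPL39 differ by 0.25 ± 0.07 log2 units, which did not pass over all genes (adjusted p = 0.051). RPS27L, a copy of RPS27 known as a p53 target, stood at 84.9 and 94.9 and at 83.2 and 91.6 RPKM (-0.04 ± 0.06; adjusted p = 0.61). RPS27 stood at 1226 and 1355 and at 1149 and 1246 RPKM (-0.11 ± 0.06; adjusted p = 0.13). RPS20 (-0.09) and RPL10L (0.13) did not pass either, and in RPL39, RPS27L and RPS27 the groups overlapped.

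Beside CCAFs the median fall was smallest. Here 38 of 79 members were lower and none higher (limma adjusted p under 0.05), where 21.5% of all genes were lower and 26.8% higher, and at an unadjusted p under 0.05 the counts were 47 lower and 1 higher. The median log2 change was -0.16, against 0.05 over all genes. The count leans on single libraries: it was 23 and 19 without DMSO library 1 or 2 beside CCAFs, and 15 without enzalutamide library 1. With median-of-ratios scaling it was 59, and without the filter on low values 24. Called members numbered 26 of 47 in the large and 12 of 32 in the small subunit.

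RPL4 went from 1418 and 1445 to 1082 and 1134 RPKM (log2 change -0.37 ± 0.05; limma adjusted p = 0.00012), and RPL32 from 305 and 311 to 232 and 252 (-0.35 ± 0.05; adjusted p = 0.00051). RPL12, at the base of the stalk, went from 1260 and 1281 to 985 and 1045 RPKM (-0.32 ± 0.06; adjusted p = 0.0016). RPL14 fell by 0.31 ± 0.04 and RPS2 by 0.31 ± 0.07 on the log2 scale (adjusted p = 0.00026 and 0.0062, RPS2 at 0.058 without the filter). The members with the largest falls were thus in part the ones that led in the other cultures. RPS27 stood at 1181 and 1218 RPKM under DMSO and at 1326 and 1329 under enzalutamide, and did not pass (0.15 ± 0.06; adjusted p = 0.055).

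**Figure D4:**
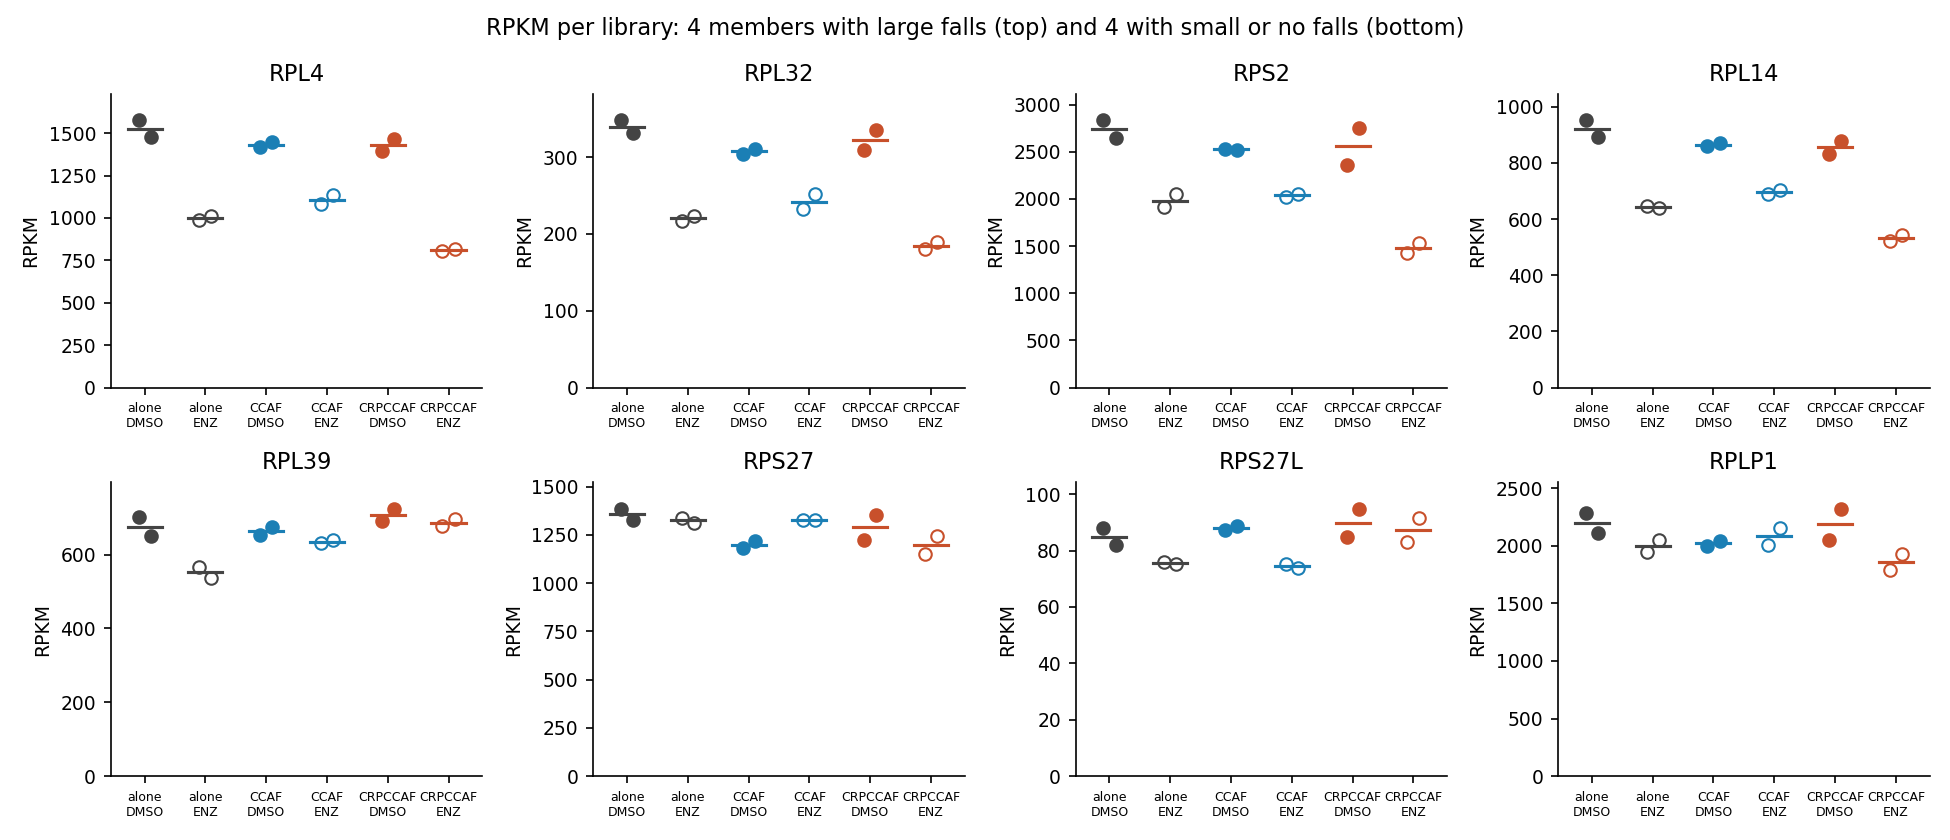
RPKM of 8 members in each of the 12 libraries (axis from 0 in each panel; filled DMSO, open enzalutamide, line at the group mean). In RPL4, RPL32, RPS2 and RPL14 the CRPCCAF enzalutamide pair is the lowest of all groups; in RPL39 and RPS27L it is not.

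Across the 3 cultures, 37 members were lower in all, 31 in LNCaP alone and beside CRPCCAFs but not beside CCAFs, and 6 only beside CRPCCAFs by their calls (RPL13, RPL28, RPL37A, RPL41, RPLP1 and RPS15). RPL39 and RPS20 were called only in LNCaP alone, RPS27L there and beside CCAFs, and RPS27 and RPL10L in none. In 71 of 79 members the log2 changes had the same order, lowest beside CRPCCAFs, then alone, then beside CCAFs. How many of all genes had this order or these calls was not counted, and members of 1 library moved together. By the test, the effect in LNCaP alone differed from that beside CRPCCAFs in 1 member and from that beside CCAFs in 0. The changes in LNCaP alone and beside CRPCCAFs, which share no library, correlated across the 79 members (Pearson r = 0.79, Spearman rho = 0.79). That is a description across genes, whose points share library totals. Changes ran lower in members with more reads beside CRPCCAFs (r = -0.51, rho = -0.32 with log10 median reads) and hardly followed gene length there (r = -0.22). The values for reads were weaker in LNCaP alone (r = -0.27, rho = -0.06) and beside CCAFs (r = -0.23, rho = -0.14).

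The difference between the enzalutamide effects was tested itself. The effect beside CRPCCAFs was lower than that beside CCAFs in 42 of 79 members and higher in none (limma adjusted p under 0.05; at an unadjusted p under 0.05, 68 lower and 1 higher), where 4.07% of all genes were lower and 2.38% higher. The median difference was -0.34, against -0.02 over all genes. RPS2 (-0.48 ± 0.10; adjusted p = 0.024), RPL13 (-0.48 ± 0.12; 0.046), RPL32 (-0.46 ± 0.08; 0.0068) and RPL4 (-0.44 ± 0.06; 0.0033) were among the largest differences. The count is not firm: it was 8, 12, 20 and 9 without DMSO library 1, DMSO library 2, enzalutamide library 1 or enzalutamide library 2 beside CCAFs, and 19, 7 and 25 without DMSO library 2, enzalutamide library 1 or enzalutamide library 2 beside CRPCCAFs. It was 59 without DMSO library 1 beside CRPCCAFs and 7 without the filter. RPL4, RPL14, RPL19, RPL32, RPL36A and RPS4X passed in all 14 alternative fits (RPL14 and RPL19 are named in this comparison after their values were seen). The calls of RPS2 and RPL13 were lost without either DMSO library or either enzalutamide library beside CCAFs, at adjusted p from 0.068 to 0.15, and without enzalutamide library 1 beside CRPCCAFs, at 0.096 and 0.14. The RPL13 call was also lost without enzalutamide library 2 there, at 0.1, and without DMSO library 2, at 0.094.

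Against LNCaP alone, the effect beside CRPCCAFs was lower in 1 member, RPS4X, an X-linked small subunit protein (-0.27 ± 0.05; limma adjusted p = 0.016), where 3.33% of all genes were lower and 3.68% higher. The median difference was -0.16, and 28 members were lower and 1 higher at an unadjusted p under 0.05. The RPS4X call was lost without either DMSO library or enzalutamide library 2 of LNCaP alone and without either enzalutamide library beside CRPCCAFs (adjusted p = 0.051 to 0.064), and the count was 13 without DMSO library 1 beside CRPCCAFs and 0 or 2 without each other library but DMSO library 2 there. The effect beside CCAFs differed from that in LNCaP alone in no member (limma adjusted p under 0.05; at an unadjusted p under 0.05, 33 higher and 0 lower), where 4.56% of all genes were higher and 2.45% lower, with a median difference of 0.18. It was higher in 3 members without DMSO library 2 of LNCaP alone, and in 1 without either enzalutamide library there or without enzalutamide library 1 beside CCAFs.

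The stalk proteins RPLP0, RPLP1 and RPLP2, which recruit elongation factors, differed in their calls. RPLP0 fell in all 3 cultures, by 0.27, 0.15 and 0.50 log2 units in LNCaP alone, beside CCAFs and beside CRPCCAFs (limma adjusted p = 0.0023, 0.048 and 5.5e-05). RPLP1 stood at 2290 and 2112 RPKM in LNCaP alone under DMSO and at 1948 and 2049 under enzalutamide (-0.14 ± 0.07; adjusted p = 0.13). It passed only beside CRPCCAFs, from 2051 and 2323 to 1789 and 1933 RPKM (-0.23 ± 0.07; adjusted p = 0.021), and no longer without DMSO library 2 or enzalutamide library 1 there (0.14 each). RPLP2 changed by -0.33, -0.21 and -0.44 (adjusted p = 0.016, 0.11 and 0.0039), the first lost without library 1 of either arm (0.081 and 0.077). The fall of RPLP0 beside CCAFs was lost without any 1 of its 4 libraries (0.053 to 0.25).

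RPL5 and RPL11 carry the 5S rRNA into the large subunit and, when free, bind the p53 regulator MDM2. RPL5 went from 642 and 618 to 482 and 498 RPKM in LNCaP alone, from 612 and 620 to 510 and 517 beside CCAFs, and from 630 and 625 to 428 and 444 beside CRPCCAFs (limma adjusted p = 1.9e-05, 0.00022 and 1.6e-06). RPL11 fell by 0.29, 0.19 and 0.51 log2 units (adjusted p = 0.00028, 0.005 and 7e-06). Both were thus lower in all 3 cultures, with no overlap between libraries.

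RPS6, the target of the mTOR-dependent S6 kinases, went from 1862 and 1786 to 1466 and 1570 RPKM in LNCaP alone and from 1600 and 1777 to 1166 and 1259 beside CRPCCAFs (limma adjusted p = 0.005 and 0.00014). Beside CCAFs it stood at 1615 and 1675 and at 1504 and 1551 RPKM, which did not pass (-0.11 ± 0.06; adjusted p = 0.19). RPSA, also known as a laminin receptor, changed by -0.30, -0.16 and -0.56 (adjusted p = 0.0028, 0.064 and 5.3e-05). RPL10, which joins the large subunit late in assembly, changed by -0.23, -0.11 and -0.45 (0.0029, 0.093 and 4.1e-05). RPL3, at the peptide-joining centre, fell by 0.26, 0.15 and 0.55 (0.0023, 0.046 and 2e-05), the second lost without any 1 library of that comparison (0.067 to 0.22). These 4 share the family's order of effects.

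Of the members with a close copy, RPS4X fell by 0.27, 0.16 and 0.54 log2 units in LNCaP alone, beside CCAFs and beside CRPCCAFs (limma adjusted p = 0.00021, 0.0074 and 1.9e-06; the second 0.073 without enzalutamide library 1). RPL36A fell by 0.46, 0.28 and 0.68 (1.7e-05, 0.00062 and 1.3e-06), more than the members' median each time. RPL22 changed by -0.20, -0.10 and -0.31 (0.005, 0.11 and 0.00031). RPS27A, a fusion with ubiquitin, changed by -0.29, -0.12 and -0.24 (0.0025, 0.13 and 0.0075; the last 0.052 without enzalutamide library 1). RPS27L went from 87.9 and 81.9 to 75.9 and 75.2 RPKM in LNCaP alone (-0.17 ± 0.06; 0.041) and from 87.3 and 88.7 to 75.2 and 73.9 beside CCAFs (-0.24 ± 0.06; 0.0095). The first RPS27L call was lost without DMSO library 1 (0.23) or enzalutamide library 1 or 2 (0.11 and 0.13), and the second without DMSO library 2 or enzalutamide library 2 (0.051 each).

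Copies and fusion genes outside the name rule mostly fell as well: 5, 3 and 6 of 6 were lower in LNCaP alone, beside CCAFs and beside CRPCCAFs. RPL22L1, the copy of RPL22, fell by 0.92 ± 0.04, 0.68 ± 0.04 and 1.01 ± 0.04 log2 units, from 156 and 147 to 80.2 and 79.2 RPKM in LNCaP alone (limma adjusted p = 4e-08 there). FAU, a small subunit protein made as a ubiquitin-like fusion, changed by -0.19, -0.08 and -0.24 (adjusted p = 0.058, 0.42 and 0.027). Reads of members can also fall on processed pseudogenes: 137 of 1227 pseudogene names passed the filter, with a summed level of 1143 to 1570 RPKM over the group means, against 48273 to 70828 for the members. The sources used here do not say how reads matching several copies were counted, so values of members with near-identical copies are uncertain to that extent.

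Beside CCAFs under DMSO, most members lay slightly below LNCaP alone and few passed. The log2 change was negative in 77 of 79 members, and in 70 both CCAF libraries lay below both libraries of LNCaP alone, as in 29.2% of all genes. By the test 2 of 79 were lower and none was higher (limma adjusted p under 0.05). That share is near the 3.99% of all genes that were lower (5.47% higher), and the members' median log2 change was -0.13. At an unadjusted p under 0.05, 35 were lower and 0 higher, but the share of all genes at that threshold was not counted. RPL9 stood at 632 and 616 RPKM in LNCaP alone and at 544 and 561 beside CCAFs (-0.17 ± 0.04; adjusted p = 0.036), and RPL21 at 603 and 579 and at 528 and 532 RPKM (-0.16 ± 0.04; adjusted p = 0.033). Neither call was left when any 1 of the 4 libraries was left out (adjusted p = 0.058 to 0.21), without the filter, or with equal totals. The median stayed negative in every alternative fit.

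Beside CRPCCAFs under DMSO, 1 of 79 members was lower and none higher than in LNCaP alone (limma adjusted p under 0.05; 8 lower and 0 higher at an unadjusted p under 0.05), against 16.3% of all genes lower and 14.3% higher. RPS26, at the mRNA exit of the small subunit, stood at 373 and 343 RPKM in LNCaP alone and at 300.2 and 323 beside CRPCCAFs (-0.20 ± 0.06; adjusted p = 0.042), and lost its call without library 1 of LNCaP alone (0.23) or library 1 beside CRPCCAFs (0.19). The members' median was -0.06; without library 1 beside CRPCCAFs it was 0.02, and without library 2 it was -0.14 with 10 members lower. The 2 libraries beside CRPCCAFs summed to 64443 and 71292 RPKM over the members, so this group's own spread is wide. Between the 2 cocultures under DMSO, RPL21 was higher beside CRPCCAFs (0.14 ± 0.04; adjusted p = 0.035), the 1 member of 79 called higher where 7.03% of all genes were higher and 6.41% lower, and none was lower (0 at an unadjusted p under 0.05). That call was lost without any 1 library (0.073 to 0.16), and 4 members were called without library 1 beside CRPCCAFs. These comparisons share the LNCaP alone or the CCAF libraries.

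Under enzalutamide the 2 cocultures parted. Beside CCAFs, 2 of 79 members were higher than in LNCaP alone and none lower (limma adjusted p under 0.05; 13 higher and 0 lower at an unadjusted p under 0.05), where 11.9% of all genes were higher and 7.51% lower. RPL39 stood at 565 and 538 RPKM alone and at 632 and 639 beside CCAFs (0.20 ± 0.05; adjusted p = 0.014), lost without enzalutamide library 2 of LNCaP alone (0.085) or library 1 or 2 beside CCAFs (0.058 and 0.08). RPL4 stood at 987 and 1012 and at 1082 and 1134 RPKM (0.15 ± 0.05; adjusted p = 0.047), lost without any 1 library (0.077 to 0.25). The median change of the members was 0.04.

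Beside CRPCCAFs under enzalutamide, 49 of 79 members were lower and 2 higher than in LNCaP alone under enzalutamide (limma adjusted p under 0.05), where 19.6% of all genes were lower and 16.5% higher, with a median of -0.21. RPS2 had the largest fall, from 1915 and 2048 to 1425 and 1528 RPKM (-0.42 ± 0.07; adjusted p = 0.0016). RPSA went from 1039 and 1094 to 810 and 823 RPKM (-0.38 ± 0.06; 0.0012), RPL7A from 1861 and 2009 to 1455 and 1541 (-0.37 ± 0.07; 0.0033) and RPL41 from 1049 and 1151 to 841 and 882 (-0.35 ± 0.07; 0.0037). RPL13 went from 188 and 205 to 153 and 156 RPKM (-0.34 ± 0.08; 0.011), a call lost without enzalutamide library 2 of LNCaP alone (0.078) or library 1 beside CRPCCAFs (0.058). Without these same libraries the count of lower members was 31 and 26.

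RPL39 went the other way, from 565 and 538 RPKM alone to 678 and 695 beside CRPCCAFs under enzalutamide (0.32 ± 0.05; limma adjusted p = 0.00059). RPS27L rose from 75.9 and 75.2 to 83.2 and 91.6 RPKM (0.21 ± 0.06; adjusted p = 0.024), and lost its call without either enzalutamide library of LNCaP alone (0.078 and 0.096) or library 2 beside CRPCCAFs (0.17). Libraries of the 2 groups lay apart in both genes. Against CCAFs under enzalutamide, 60 of 79 members were lower beside CRPCCAFs and 1 was higher, RPS27L (0.23 ± 0.06; adjusted p = 0.018), where 18.5% of all genes were lower and 13.9% higher. The median was -0.27. RPS2 (-0.47 ± 0.07; adjusted p = 0.001), RPL4 (-0.45 ± 0.05; 6.5e-05), RPL19 (-0.39 ± 0.05; 0.00017), RPL32 (-0.39 ± 0.05; 0.00046) and RPL14 (-0.39 ± 0.04; 0.00013) fell most. The count was 35 without library 2 beside CCAFs and 34 without library 1 beside CRPCCAFs, and the RPS27L call was lost without either CCAF library (0.06 and 0.088) or without library 2 beside CRPCCAFs (0.13). The summed fibroblast marker level was also highest in the CRPCCAF enzalutamide libraries, at 302 and 292 RPKM. FN1 alone held 187 and 179 RPKM of these sums. There 7 of 10 tested markers were higher than beside CCAFs (above). The part of the fibroblast markers in these differences was not tested.

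Other genes of the translation machinery moved with the members to different degrees. Of 29 translation factors and other TOP mRNAs, 24 were lower and 1 higher in LNCaP alone, 18 and 0 beside CCAFs and 28 and 0 beside CRPCCAFs (limma adjusted p under 0.05), with medians of -0.32, -0.20 and -0.39. EEF2, the translocation factor, went from 1277 and 1227 to 991 and 1001 RPKM in LNCaP alone, and fell by 0.33, 0.23 and 0.67 log2 units in the 3 cultures (limma adjusted p = 5.3e-05, 0.00077 and 4.6e-07). EEF1A1, which brings tRNAs to the ribosome, changed by -0.15, -0.04 and -0.46 (0.034, 0.56 and 5.8e-05). HNRNPA1, NPM1 and EIF3D fell by 0.82, 0.99 and 0.61 in LNCaP alone.

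Ribosome biogenesis factors had lower medians than the ribosomal proteins themselves. The list of 36 includes MYC, a transcription factor, which had its largest fall in each culture. Of the 36, 34 were lower in LNCaP alone and 32 beside either kind of fibroblast, with 1 higher each time. The medians were -0.72, -0.49 and -0.78. MYC stood at 90.6 and 84.6 RPKM in LNCaP alone under DMSO and at 16.8 and 16.9 under enzalutamide. It stood at 99.2 and 100.7 and at 31.6 and 30.9 RPKM beside CCAFs, and at 82.4 and 84.0 and at 8.93 and 9.34 beside CRPCCAFs. Its log2 changes of -2.31, -1.65 and -3.06 thus had the order that the members had (limma adjusted p = 5.5e-10, 5.1e-09 and 9.2e-11). MKI67, a marker of dividing cells, changed by -2.45, -1.31 and -2.62. Whether either bears on the members was not tested.

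**Figure D5:**
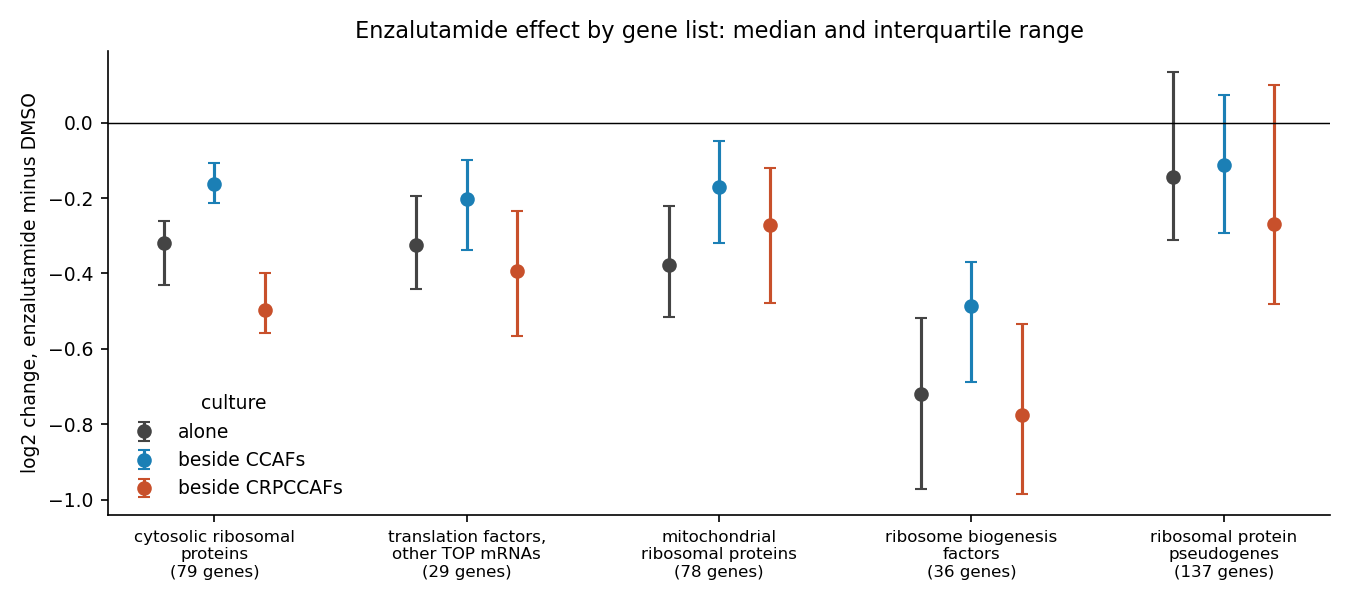
Median log2 change with enzalutamide (point) and interquartile range of the genes (bar) for 5 gene lists in LNCaP alone, beside CCAFs and beside CRPCCAFs. Ribosome biogenesis factors lie lowest (-0.72, -0.49 and -0.78); the mitochondrial list is lowest in LNCaP alone (-0.38), the cytosolic list beside CRPCCAFs (-0.50).

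The mitochondrial ribosomal protein genes, which serve the organelle's own ribosomes, had another order of medians. Of 78, 60 were lower and 3 higher in LNCaP alone, 39 and 4 beside CCAFs, and 53 and 2 beside CRPCCAFs, with medians of -0.38, -0.17 and -0.27. MRPL3 fell by 0.70 ± 0.04 in LNCaP alone and 0.50 ± 0.04 beside CCAFs, and MRPS25 by 0.90 ± 0.06 beside CRPCCAFs (limma adjusted p = 2.9e-07, 4.8e-06 and 1.7e-06). Under DMSO, coculture with CRPCCAFs left 37 of 78 lower (median -0.19) and 23 of 36 biogenesis factors lower (median -0.22). Of 79 cytosolic members 1 was lower, and of all genes 16.3% were lower. Coculture with CCAFs under enzalutamide left 16 of 78 mitochondrial genes and 18 of 36 biogenesis factors higher, beside 2 of 79 members. Of all genes 11.9% were higher there.

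Genes of the mTOR pathway and LARP1, which act on TOP mRNA translation, went both ways: of 24, 8 were higher and 9 lower in LNCaP alone, 5 and 8 beside CCAFs and 6 and 7 beside CRPCCAFs. Over all genes 30.1%, 26.8% and 30.5% were higher and 25.3%, 21.5% and 24.7% lower, and nothing particular to the list is read from these counts. MTOR itself fell by 0.61, 0.56 and 0.65 log2 units (limma adjusted p = 5.3e-06, 1.5e-05 and 3.5e-06). EIF4EBP1, which holds back cap-dependent translation, fell by 1.19, 0.79 and 0.60 (2.7e-07, 7.6e-06 and 3.3e-05). DDIT4, an mTOR inhibitor induced by stress, stood at 141 and 127 RPKM in LNCaP alone and at 77.5 and 82.5 with enzalutamide, and at 288 and 317 beside CRPCCAFs and 299 and 294 with enzalutamide. Of 17 chaperones and importers of ribosomal proteins, 13, 12 and 13 were lower in the 3 cultures and 1, 0 and 1 higher. IPO4 fell by 0.84, 0.65 and 1.06 and KPNB1 by 0.67, 0.40 and 0.46.

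Members with and without a pyrimidine run at the annotated start had close medians. In LNCaP alone the median log2 change was -0.32 over 50 tested members with a run and -0.28 over 14 without, beside CCAFs -0.16 and -0.17, and beside CRPCCAFs -0.49 and -0.51. Members with CCGGAAG had medians of -0.34, -0.16 and -0.52 (22 genes), and those without -0.29, -0.16 and -0.49 (42 genes). Among the sequences shown above, RPL4 with a run and RPL32 without one fell by like amounts, while RPL39, with the longest run, and RPS27L, with none, both changed by -0.04 beside CRPCCAFs.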

How the data were processed

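Per the labels' protocols, RNA was extracted with Trizol, made into NEBNext Ultra libraries and sequenced on a HiSeq. The values deposited by the authors are RPKM, per the file headers. HISAT2, HTSeq, DESeq2, hg19 and mm10 appear in the submitters' processing notes with no role or version; the sources used here do not say how human and fibroblast reads were separated. Of 44591 rows, 27 date names were removed. The other 12 libraries of the series, mouse fibroblasts, were not used here. Reads and gene lengths were recovered from the common step of each gene's RPKM (at least 6 libraries above 0; tolerance 0.02 reads; 25005 genes, at least 99.92% of each total). They served to describe depth, gene lengths and reads of the members, and to make the simulated data. The limma fits of the deposited values did not use them.

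Genes at 1 RPKM or more in at least 2 of 12 libraries (16042) were fitted once with limma 3.58.1 (R 4.3.3) on log2(RPKM + 1) with a mean-variance trend, 6 groups and 6 residual degrees of freedom. P values are two-sided and adjusted by Benjamini-Hochberg within each of 12 comparisons, with a threshold of 0.05. Counts at an unadjusted p under 0.05 have no share of all genes beside them, since that share was not counted. The script was tested on simulated data. The members and lists were chosen with earlier results of these data known. Named members passed the threshold, averaged 1 RPKM or more and had no overlap between groups (for differences of effects, only the threshold counted): up to 5 largest rises and 5 largest falls a comparison, plus a set of stalk members and members with copies or other known roles; a few genes this rule picks are left out of the text; other lists gave up to 4 genes by smallest p and mitochondrial genes up to 2. Alternatives were a pseudocount of 0.1, no filter, 3 scalings (median of ratios, equal totals, equal totals of other genes), a replicate block and each library left out. Promoter letters are from RefSeq, 250 bases before to 50 after the first entry of each symbol.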

Additional observations from a re-analysis of the deposited data

Results flagged for a closer look

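The change with enzalutamide was tested for a difference between cultures. Beside CRPCCAFs against beside CCAFs, 42 of 79 members had a lower effect, where 4.07% of all genes did. Among the members named, the differences in log2 change were -0.479 for RPS2, -0.477 for RPL13, -0.455 for RPL32, -0.444 for RPL4, -0.404 for RPL3, -0.399 for RPSA, -0.397 for RPL36A, -0.39 for RPS4X, -0.37 for RPS6, -0.342 for RPLP0, -0.341 for RPL10, -0.32 for RPL11 and -0.262 for RPL5 (limma adjusted p under 0.05 in each). Of these 13, only RPL4, RPL32, RPL36A and RPS4X passed in each of the 14 alternative fits. Against LNCaP alone, 1 member had a lower effect beside CRPCCAFs, RPS4X, with a difference of -0.274. That is under the 3.33% of all genes that were lower, and the call was lost in 5 of the 8 fits that left out 1 library and without the filter on low values.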

How the results depend on the processing

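No result changed direction past the threshold. Over all genes tested, deviations of same-numbered libraries correlated between -0.0617 and 0.084 over 15 pairs of groups. Most members, though, were higher in library 2 in every group but LNCaP alone under DMSO. The labels do not say whether same-numbered libraries share a batch, and beyond these correlations and the replicate block it was not tested. With the replicate block, lower members under CRPCCAF coculture with DMSO numbered 2, higher members under CCAF coculture with enzalutamide 1, and higher members in the difference of effects CCAF minus alone 1. Without the filter on low values, enzalutamide beside CCAFs gave 1 higher and 24 lower, CCAF and CRPCCAF coculture under DMSO 0 lower each, the DMSO cocultures against each other 0 higher, CCAF coculture under enzalutamide 0 higher, CRPCCAF coculture under enzalutamide 1 higher, and the differences CRPCCAF minus alone and minus CCAF 0 and 7 lower. Median-of-ratios scaling gave 59 lower with enzalutamide beside CCAFs, 4 lower with CRPCCAFs under DMSO, 1 higher with CCAFs under enzalutamide and 2 lower for CRPCCAF minus alone. Equal totals gave 1 higher with enzalutamide beside CCAFs, and equal totals of all genes or of other genes gave 0 lower with CCAFs under DMSO, 3 higher for CRPCCAFs against CCAFs under enzalutamide and, for CRPCCAF minus alone, 5 lower and 1 higher; with totals of other genes CRPCCAFs under DMSO gave 0 lower. The causes were not tested.

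Leaving out 1 library in turn, with the lone library assumed to vary like the other groups, gave 57 to 72 lower with enzalutamide in LNCaP alone, 15 to 29 beside CCAFs and 71 to 75 beside CRPCCAFs (0 to 1 higher). It gave 0 to 0 lower with CCAFs under DMSO, 0 to 10 lower and 0 to 1 higher with CRPCCAFs, and 0 to 4 higher between them. Under enzalutamide it gave 0 to 1 higher with CCAFs, 26 to 48 lower and 1 to 2 higher with CRPCCAFs, and 34 to 54 lower and 0 to 1 higher between them. The differences of effects gave 0 to 3 higher (CCAF minus alone), 0 to 13 lower and 0 to 1 higher (CRPCCAF minus alone) and 7 to 59 lower (CRPCCAF minus CCAF). Of 2726 alternative values for named members, 140 lost their call, 50 gained one, 83 that did not pass before or after changed sign, and none that passed in either fit did. Lower in every fit were 57 of 71 members in LNCaP alone, 13 of 38 beside CCAFs and 71 of 74 beside CRPCCAFs.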
